A study of Sus scrofa with 24 samples.

Results

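The genes described here encode subunits of the mitochondrial respiratory chain (complexes I to IV) and of ATP synthase, together with assembly factors that share their gene names. They were chosen by name alone, as every gene whose name begins with NDUFA, NDUFB, NDUFC, NDUFS, NDUFV, SDH, UQCR, COX4, COX5, COX6, COX7, COX8 or ATP5 and that had 10 or more reads in any library. This gave 64 of the 25880 genes in the count table. The same minimum left 13653 genes to test, so all 64 genes were tested. Of 67 fitting names, COX8C, COX8H and COX7B2 had at most 1 read in any library and were left out. RNA was sequenced from porcine medial meniscus cells, isolated from the inner or the outer zone of menisci of skeletally mature female pigs, pooled from several menisci, grown for a single passage and seeded on stretch plates. In each zone there were 4 groups of 3 wells: cells stretched at 5% strain and 0.5 Hz with 0.1 ng/mL IL-1α, cells at rest with 0.1 ng/mL IL-1α, cells stretched without IL-1α, and cells at rest without IL-1α (untreated). Wells were numbered 1 to 3 for the inner zone and 4 to 6 for the outer zone. The study asked how dynamic stretch changes the response of meniscal cells to IL-1, an inflammatory cytokine raised in injured joints. Because cells were pooled before plating, p-values measure the spread between wells and not between animals. A further code in the library titles is the same for all wells of a treatment in both zones, so whatever it marks cannot be told apart from the treatment.

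The respiratory chain passes electrons from NADH at complex I and from succinate at complex II through complex III to oxygen at complex IV, and ATP synthase uses the resulting proton gradient to make ATP. Most subunits are encoded in the nucleus, and a core set is encoded in mitochondrial DNA. Several complex IV subunits exist as pairs of isoforms, a ubiquitous form and one best known from muscle, lung or testis. Cells of cartilage-like tissues live with a poor blood supply and are known for a largely glycolytic metabolism.

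Library depth ranged from 25377054 to 35284474 reads. Levels are read counts relative to library size (CPM, the usual per-million scale), with library sizes scaled by the trimmed mean of M values (TMM), which takes most genes as unchanged. TMM factors were 0.881 to 0.968 in the 12 libraries with IL-1 and 1.04 to 1.12 in the 12 without. The scaling matters for genes that change little. At rest in the inner zone, the 64 genes took 0.389% of all reads with IL-1 and 0.438% untreated, while their summed scaled level was 4259 ± 26.8 CPM with IL-1 and 3966 ± 57.2 CPM untreated (SD, n = 3 each). Summed levels of cell type markers differed in range between wells with and without IL-1. The 1 endothelial marker measured of 5 had 4.99 to 5.38 CPM in inner zone wells at rest with IL-1 and 7.62 to 9.31 CPM untreated, and 6.07 to 7.59 CPM with IL-1 and 8.7 to 8.93 CPM untreated in the outer zone. The 3 mural markers measured of 6 summed to 62.1 to 69.4 CPM with IL-1 and 79.9 to 92.3 CPM untreated in the inner zone, and 46.7 to 51.3 CPM with IL-1 and 66.1 to 68.3 CPM untreated in the outer zone. The 4 leukocyte markers tested of 7 summed to 24.7 to 29.6 CPM with IL-1 and 17.4 to 18.1 CPM untreated in the inner zone, and 39.8 to 43.5 CPM with IL-1 and 22 to 23.9 CPM untreated in the outer zone. The 6 chondrocyte-like markers measured of 7 summed to 2176 to 2385 CPM with IL-1, 2263 to 2422 CPM with stretch and 2746 to 2886 CPM untreated in the inner zone, and to 890.1 to 939 CPM with IL-1, 946 to 1088 CPM with stretch and 1112 to 1199 CPM untreated in the outer zone. The 6 fibroblast-like markers summed to at least 72931 CPM in every library. The part of these markers in the results was not tested.

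Most of the 64 genes were well expressed and varied little. Averaged over the 24 libraries, NDUFA4L2 was lowest at 0.65 CPM, the median was 50.8 CPM, and ATP5A1, the alpha subunit of the catalytic head of ATP synthase, was highest at 486 CPM. Per kilobase of exon, the most abundant were ATP5A1 (263 CPM per kb), COX4I1 (245 CPM per kb) and ATP5G3 (232 CPM per kb). Between the 8 group means of a gene, the ratio of highest to lowest had a median of 1.24, and 55 genes stayed under 1.5. Among the 9 genes with wider ratios were COX6B2, COX4I2, SDHAF3, NDUFA4L2, NDUFV3, NDUFC1, COX7A1 and NDUFA6, led by COX6B2 at 21.9 and COX4I2 at 2.96.

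The promoters of these genes carried an ETS sequence more often than promoters at large. GABP, an ETS-family factor, is known in human and mouse cells to act on many respiratory genes, so both strands of the 300 bases from 250 before to 50 after each RefSeq start were searched for the ETS sequence CCGGAAG. It was present in 19 of 64 promoters of these genes (29.7%) and in 11% of 19556 promoters of all protein-coding genes. A 10-base sequence of another factor, NRF1, was searched as well. It was present in 2 of 64 promoters of these genes (3.12%) and in 1.12% of all. A match describes letters in the window and not a binding site. Promoters of 3 genes from RefSeq (Sscrofa11.1) are shown because their genes differ in response below: NDUFS3 was lower with IL-1, COX4I1 was higher, and COX7A2 was lower in untreated inner than outer zone cells. Capitals mark the ETS sequence on either strand.
NDUFS3, chr2:15036831-15037130, minus strand: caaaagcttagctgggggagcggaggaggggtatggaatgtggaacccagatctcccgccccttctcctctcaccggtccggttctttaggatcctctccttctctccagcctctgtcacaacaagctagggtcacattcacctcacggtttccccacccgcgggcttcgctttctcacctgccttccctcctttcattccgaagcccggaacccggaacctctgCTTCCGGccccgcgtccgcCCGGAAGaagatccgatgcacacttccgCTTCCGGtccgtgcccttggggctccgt
COX4I1, chr6:3137570-3137869, minus strand: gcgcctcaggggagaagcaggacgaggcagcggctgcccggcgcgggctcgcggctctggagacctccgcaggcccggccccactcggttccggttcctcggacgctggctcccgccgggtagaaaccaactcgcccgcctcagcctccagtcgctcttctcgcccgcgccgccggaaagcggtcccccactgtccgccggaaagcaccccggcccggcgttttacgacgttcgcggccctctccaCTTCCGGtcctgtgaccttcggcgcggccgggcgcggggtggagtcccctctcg
COX7A2, chr1:90696496-90696795, plus strand: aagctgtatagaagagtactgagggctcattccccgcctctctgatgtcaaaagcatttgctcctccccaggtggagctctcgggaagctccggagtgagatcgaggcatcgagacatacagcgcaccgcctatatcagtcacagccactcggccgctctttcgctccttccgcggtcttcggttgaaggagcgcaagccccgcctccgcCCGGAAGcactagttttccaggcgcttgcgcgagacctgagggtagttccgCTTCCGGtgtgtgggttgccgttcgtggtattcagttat
Genes with the ETS sequence were called in both directions with IL-1 at rest. With IL-1 at rest in the inner zone, 11 of 19 with it were higher and 2 lower, against 14 higher and 6 lower of 45 without it. For the outer zone the counts were 4 higher and 5 lower with the sequence, against 10 and 11 without it. With stretch in the presence of IL-1 in the inner zone, 0 of 19 with the sequence were higher and 8 lower, against 1 and 12 of 45 without it. In untreated inner against outer zone cells 0 with it were higher and 7 lower, against 3 and 19 without it. Of all genes tested, 32.6% were higher and 32.8% lower with IL-1 at rest in the inner zone, and 31.1% and 33.5% in the outer zone. For stretch with IL-1 in the inner zone the shares were 16.6% and 18.1%, and for the untreated zones 20.7% and 24.3%. These counts are on the TMM scale, and any part of the sequence in the responses was not tested.

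IL-1 at rest moved many of the 64 genes by small amounts in both directions. In the inner zone 25 of 64 genes rose and 8 fell with IL-1 (edgeR quasi-likelihood test, Benjamini-Hochberg adjusted p under 0.05 over all genes tested), beside 32.6% of all genes higher and 32.8% lower. In the outer zone 14 rose and 16 fell, beside 31.1% and 33.5% of all genes. The median absolute log2 fold change was 0.11 for the 64 genes and 0.34 for all genes in the inner zone, and 0.11 and 0.35 in the outer zone. The signed median of the 64 was 0.078 in the inner zone and -0.00388 in the outer zone, beside -0.026 and -0.041 over all genes. COX6B2 was the gene that rose more than 2-fold in each zone, while COX4I2 fell more than 2-fold in both and SDHAF3 in the inner zone. The difference between the zones in this effect passed the edgeR test for 0 of the 64 genes, with 10 at an unadjusted p under 0.05 and 0 called by DESeq2, beside 5.41% of all genes with a more positive and 3.82% with a more negative effect in the inner zone.

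The direction of the small changes depended on the scaling. Scaling by library totals, which shifted the median gene by -0.27 on the log2 scale in the inner and -0.27 in the outer zone, gave 2 higher and 48 lower in the inner zone and 2 higher and 54 lower in the outer zone. Upper-quartile scaling, with shifts of -0.18 and -0.18, gave 5 higher and 28 lower and 3 higher and 45 lower. COX6B2 was higher in both zones under all 4 scalings run (these 2, TMM and the DESeq2 size factors). ATP5G2, COX4I2, COX6A2, NDUFAF1, NDUFC1, NDUFS3, NDUFV3 and SDHAF3 were lower in both zones under all 4. The shifts by library totals and upper-quartile scaling are both negative. Holding under all 4 is thus an easier condition for falls with IL-1 than for small rises. For other genes, directions below are relative to the TMM scale, as are the counts by complex. The background for those counts is 32.6% of all genes higher and 32.8% lower in the inner zone, and 31.1% and 33.5% in the outer zone.

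**Figure D1:**
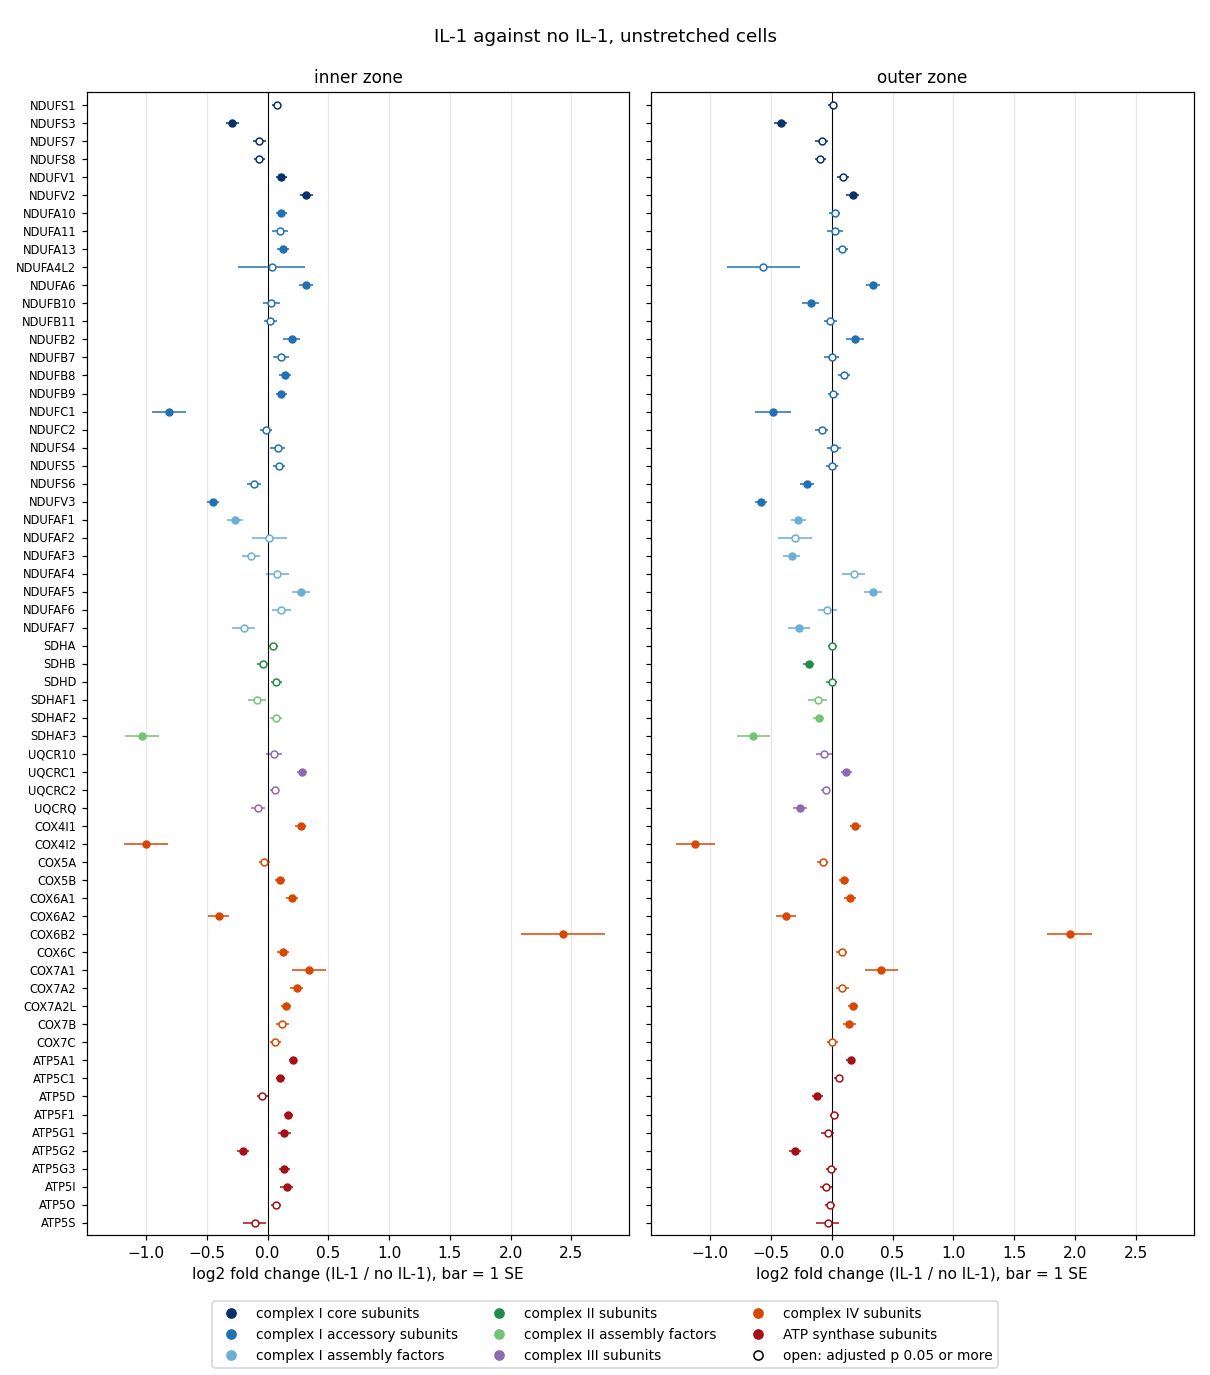
Log2 fold change with IL-1 over no IL-1 in unstretched cells (x axis) for 63 of the 64 genes (y axis, by complex), inner zone left and outer zone right; bars are 1 SE and filled points passed adjusted p under 0.05. Most genes lie close to 0, while COX6B2 (2.43 inner, 1.96 outer) stands to the right and COX4I2 (-1.0003, -1.12) to the left.

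Of the 7 core subunits of complex I, which carry its redox centres and quinone site, 3 rose and 1 fell in the inner zone, and 2 rose and 1 fell in the outer zone with IL-1. NDUFV2, an iron-sulfur subunit of the NADH-oxidising arm, had 71.8, 66.6 and 72 CPM in inner zone wells with IL-1, against 55.5, 58.2 and 55.2 CPM untreated. NDUFV2 had 60.6, 60.6 and 62.5 CPM in outer zone wells with IL-1, against 55.5, 52.7 and 55.2 CPM untreated. Wells with IL-1 were all higher in both zones, by 0.32 ± 0.051 (adjusted p = 1.5e-06) and 0.17 ± 0.052 (adjusted p = 0.0044) on the log2 scale, where ± is the SE, but library totals ended the inner zone call and in the outer zone turned the value to -0.10. NDUFS3, a subunit of the connecting arm, moved the other way. It had 44.4, 42.5 and 45.2 CPM in inner zone wells with IL-1, against 53.9, 54.7 and 53 CPM untreated. NDUFS3 had 39.7, 41.2 and 36.9 CPM in outer zone wells with IL-1, against 54, 48.8 and 54.4 CPM untreated. Each well with IL-1 lay below every untreated well of its zone, with log2 fold changes of -0.29 ± 0.052 (adjusted p = 1.1e-05) and -0.42 ± 0.053 (adjusted p = 1.6e-08).

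Of the 17 genes grouped here as accessory subunits of complex I, NDUFA4L2 among them, 6 rose and 2 fell in the inner zone, and 2 rose and 4 fell in the outer zone. NDUFA6, a matrix-arm subunit, had 33.4, 31.3 and 30.2 CPM in inner zone wells with IL-1, against 25.7, 26.2 and 24.4 CPM untreated. NDUFA6 had 34, 36.1 and 34.8 CPM in outer zone wells with IL-1, against 29, 27 and 26.8 CPM untreated. The rises were 0.32 ± 0.059 (adjusted p = 1.9e-05) and 0.34 ± 0.059 (adjusted p = 5.0e-06) on the log2 scale, and both calls were lost with library totals. NDUFV3, a small subunit of the NADH-oxidising arm, had 57, 52.4 and 54 CPM in inner zone wells with IL-1, against 78.2, 73.9 and 71.1 CPM untreated. NDUFV3 had 45.6, 44.1 and 40.8 CPM in outer zone wells with IL-1, against 64.2, 65.5 and 65.7 CPM untreated. All wells with IL-1 were lower than the untreated wells, with log2 fold changes of -0.45 ± 0.050 (adjusted p = 7.6e-10) and -0.58 ± 0.051 (adjusted p = 2.5e-12). NDUFC1, a membrane-arm subunit, was sparse, with 2.88, 2.65 and 3.03 CPM in inner zone wells with IL-1, against 5.13, 4.61 and 5.34 CPM untreated. Its log2 fold changes were -0.81 ± 0.14 (adjusted p = 7.4e-06) and -0.49 ± 0.15 (adjusted p = 0.0042). NDUFA4L2, a paralogue of NDUFA4 known to be induced by hypoxia, stayed between 0.389 and 0.963 CPM, with log2 fold changes for IL-1 at rest of 0.032 ± 0.28 (adjusted p = 0.93) and -0.57 ± 0.30 (adjusted p = 0.098).

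Of the 7 complex I assembly factors, 1 rose and 1 fell in the inner zone, and 1 rose and 3 fell in the outer zone. NDUFAF5, which modifies a core subunit during assembly, had 17.9, 18.2 and 18.7 CPM in inner zone wells with IL-1, against 15.9, 16.1 and 13.4 CPM untreated. NDUFAF5 had 15.3, 16.4 and 15.8 CPM in outer zone wells with IL-1, against 12.7, 11.6 and 13.2 CPM untreated. Its groups did not overlap, the log2 fold changes were 0.27 ± 0.073 (adjusted p = 0.0013) and 0.34 ± 0.076 (adjusted p = 0.00019), and both calls were lost with library totals. NDUFAF1, which acts in assembly of the membrane arm, had 17, 16.4 and 16.2 CPM in inner zone wells with IL-1, against 19.4, 20 and 20.3 CPM untreated. It fell in both zones, with log2 fold changes of -0.27 ± 0.064 (adjusted p = 0.00039) and -0.27 ± 0.063 (adjusted p = 0.00025). NDUFAF3, an assembly factor of the matrix arm, averaged 16 ± 0.925 CPM with IL-1 and 20 ± 0.205 CPM untreated in the outer zone (SD, n = 3 each), a change of -0.33 ± 0.068 (adjusted p = 6.2e-05).

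**Figure D2:**
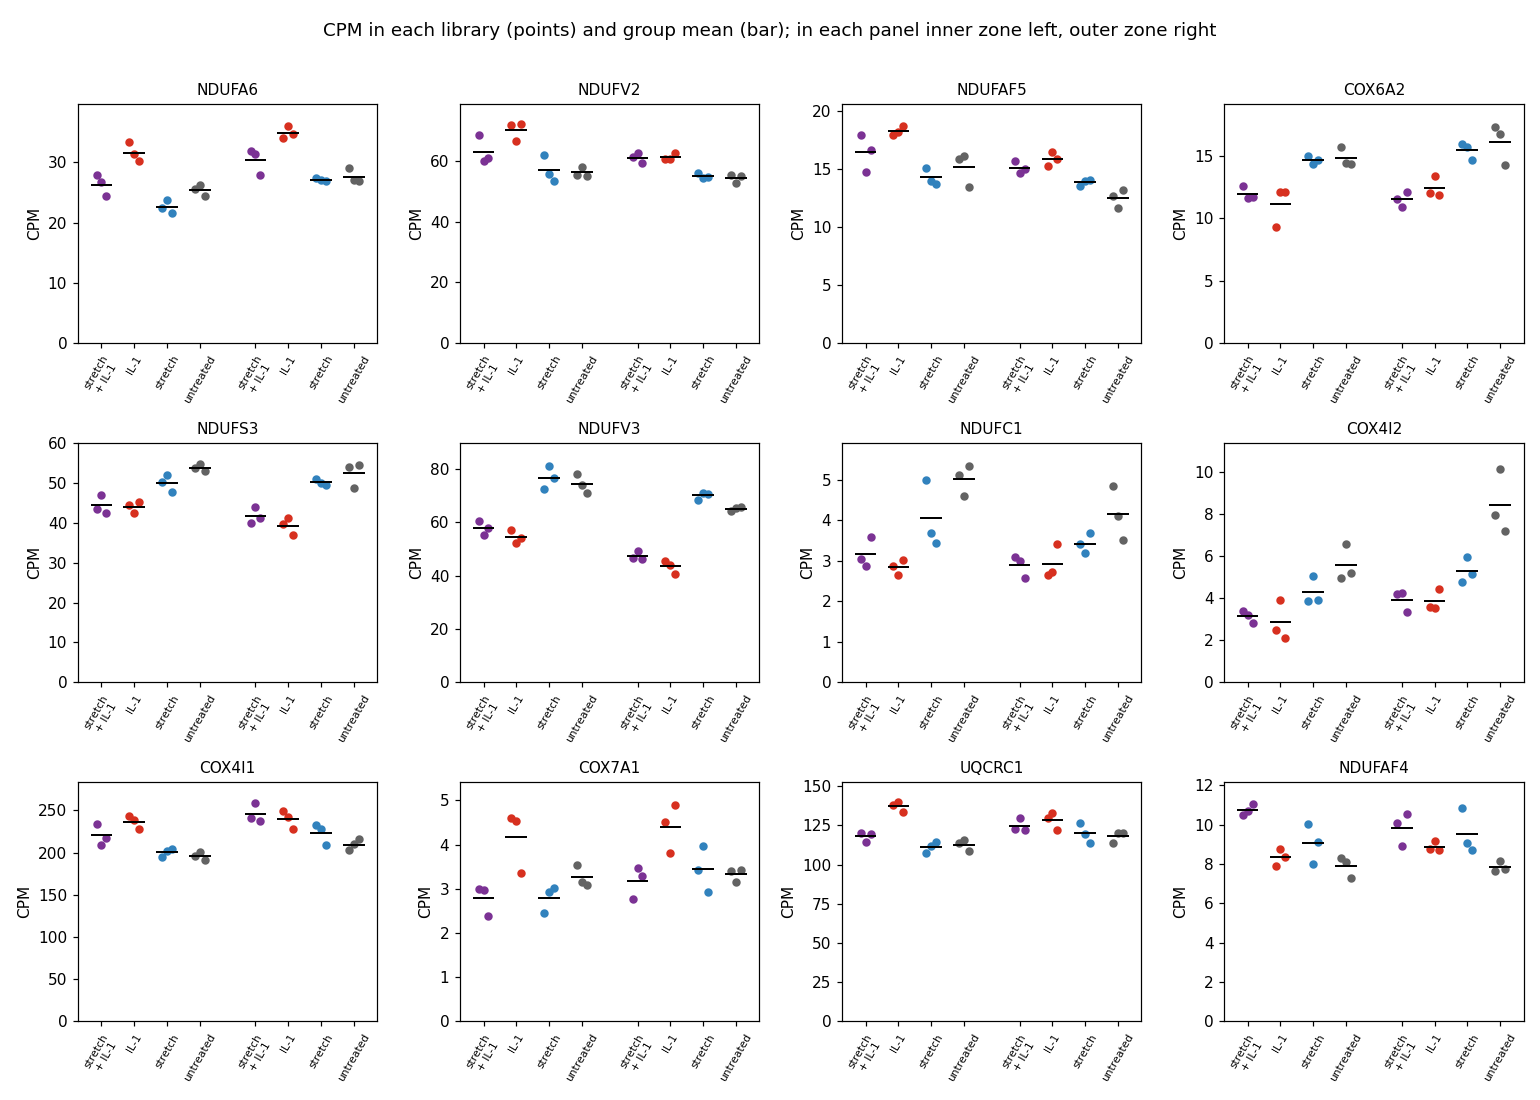
CPM (y axes, from 0) of 12 genes in every library (points) with group means as bars; in each panel the inner zone groups stand left and the outer zone groups right. NDUFA6 reaches 33.4, 31.3 and 30.2 CPM in inner zone wells at rest with IL-1, against 25.7, 26.2 and 24.4 CPM untreated, and NDUFV3 is lower in all wells with IL-1.

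Complex II links succinate oxidation to the chain. Its subunits SDHA, SDHB and SDHD had log2 fold changes with IL-1 in the inner zone of 0.048 ± 0.039 (adjusted p = 0.29), -0.041 ± 0.047 (adjusted p = 0.46) and 0.072 ± 0.047 (adjusted p = 0.18). SDHB, its iron-sulfur subunit, fell in the outer zone, with a log2 fold change of -0.19 ± 0.047 (adjusted p = 0.00062). SDHAF3, a factor for maturation of SDHB, lay under the 5 CPM set for naming and was picked after its values were seen. It had 2.21, 1.64 and 2.13 CPM in inner zone wells with IL-1, against 3.77, 4.12 and 4.42 CPM untreated. SDHAF3 had 2.58, 2.26 and 2.75 CPM in outer zone wells with IL-1, against 4.08, 3.58 and 4.23 CPM untreated. The groups did not overlap, and the changes were -1.03 ± 0.14 (adjusted p = 6.8e-08) and -0.64 ± 0.14 (adjusted p = 8.6e-05). In complex III, the core protein UQCRC1 had 138, 139.7 and 134 CPM in inner zone wells with IL-1, against 114, 115 and 109 CPM untreated, a rise of 0.28 ± 0.043 (adjusted p = 4.6e-07) whose call was lost with library totals. Its outer zone rise of 0.12 ± 0.043 (adjusted p = 0.014) lost its call without untreated well 4 or IL-1 well 5 (up to adjusted p = 0.088), and library totals turned it to -0.15. UQCRQ, a small subunit of complex III, fell in the outer zone (-0.26 ± 0.058, adjusted p = 0.00018).

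Complex IV held the widest changes, and within the COX4I and COX6A pairs the isoforms were called in opposite directions. Of the 13 genes grouped here as complex IV, COX7A2L among them, 8 rose and 2 fell in the inner zone, and 7 rose and 2 fell in the outer zone. The shares of all genes were 32.6% and 32.8% in the inner zone, and 31.1% and 33.5% in the outer zone. Of the complex IV genes that rose, only COX6B2 was higher under all 4 scalings. The genes that fell, COX4I2 and COX6A2, were lower under all 4, a condition that the negative shifts make easier for falls. COX4I1, the ubiquitous form of subunit 4, had 243, 239 and 228 CPM in inner zone wells with IL-1, against 196, 201 and 191 CPM untreated. COX4I1 had 249, 242 and 228 CPM in outer zone wells with IL-1, against 203, 209.8 and 216 CPM untreated. All wells with IL-1 were higher, by 0.27 ± 0.045 (adjusted p = 2.4e-06) and 0.19 ± 0.045 (adjusted p = 0.00029), though library totals turned the values to -0.00241 and -0.078. COX4I2, the form best known from lung, had 2.48, 3.91 and 2.13 CPM in inner zone wells with IL-1, against 4.94, 6.57 and 5.19 CPM untreated. COX4I2 had 3.6, 3.51 and 4.41 CPM in outer zone wells with IL-1, against 7.93, 10.1 and 7.2 CPM untreated. Every well with IL-1 lay below the untreated wells, with log2 fold changes of -1.0003 ± 0.18 (adjusted p = 2.3e-05) and -1.12 ± 0.16 (adjusted p = 6.7e-07). Per kilobase of exon, COX4I2 made up 1.27% ± 0.400 of the pair with IL-1 and 2.95% ± 0.394 untreated in the inner zone, and 1.7% ± 0.289 with IL-1 and 4.13% ± 0.737 untreated in the outer zone (SD, n = 3 each).

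The muscle-type forms did not move together. COX6A2 had 9.34, 12.1 and 12.1 CPM in inner zone wells with IL-1, against 15.7, 14.4 and 14.3 CPM untreated, and fell by 0.40 ± 0.085 (adjusted p = 8.6e-05) in the inner and 0.38 ± 0.083 (adjusted p = 0.00015) in the outer zone. Its ubiquitous partner COX6A1 rose by 0.20 ± 0.048 (adjusted p = 0.0004) in the inner zone and by 0.15 ± 0.048 (adjusted p = 0.0067) in the outer zone, where the call was lost without IL-1 well 4 (adjusted p = 0.0501) and library totals gave -0.071 and -0.12 in the inner and outer zones. COX7A1, also a muscle-type form, had 4.61, 4.54 and 3.35 CPM in inner zone wells with IL-1, against 3.54, 3.16 and 3.09 CPM untreated, and these groups overlapped. Its rise of 0.34 ± 0.14 (adjusted p = 0.034) lost its call without untreated well 2 or 3 or IL-1 well 1 or 2 (up to adjusted p = 0.16). The outer zone rise of COX7A1, 0.41 ± 0.14 (adjusted p = 0.01), lost its call with upper-quartile scaling and library totals, as did the inner zone rise, and without IL-1 well 6 (adjusted p = 0.074). COX7A2, its ubiquitous partner, rose by 0.24 ± 0.051 (adjusted p = 0.0001) in the inner zone, turned to -0.034 by library totals, and had 0.087 ± 0.050 (adjusted p = 0.13) in the outer zone.

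COX6B2, the testis-type form of subunit 6B, changed most. It had 0.985, 1.68 and 1.09 CPM in inner zone wells with IL-1, against 0.162, 0.215 and 0.297 CPM untreated. COX6B2 had 4.47, 4.87 and 5.19 CPM in outer zone wells with IL-1, against 1.44, 1.17 and 1.14 CPM untreated. The groups did not overlap, and the log2 fold changes were 2.43 ± 0.35 (adjusted p = 1.6e-07) and 1.96 ± 0.19 (adjusted p = 2.1e-11), on low counts. COX6B2 was placed by its product name on chromosome 6 (59530419 to 59531770, minus strand). IL11, a cytokine gene of the IL-6 family, lies upstream on the same strand with 8711 bases and the gene FAM71E2 between them. IL11 had 239, 234 and 197 CPM in inner zone wells with IL-1, against 5.75, 7.96 and 6.82 CPM untreated. IL11 had 1141, 1072 and 1016 CPM in outer zone wells with IL-1, against 25.8, 28 and 26.5 CPM untreated. IL11 lies beyond the 5000 bases within which genes near the 64 were listed, and was added outside that rule. Both genes were higher with IL-1 at rest and in the outer zone, but they did not move together in every comparison. With stretch and IL-1 in the inner zone, IL11 had 178, 162 and 154 CPM, below all wells at rest with IL-1. COX6B2 was not called lower there, with a log2 fold change for stretch of 0.52 ± 0.23 (adjusted p = 0.078). Whether IL11 has a part in the reads given to COX6B2 was not tested. The strand setting of the counting is not given in the sources used here.

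**Figure D3:**
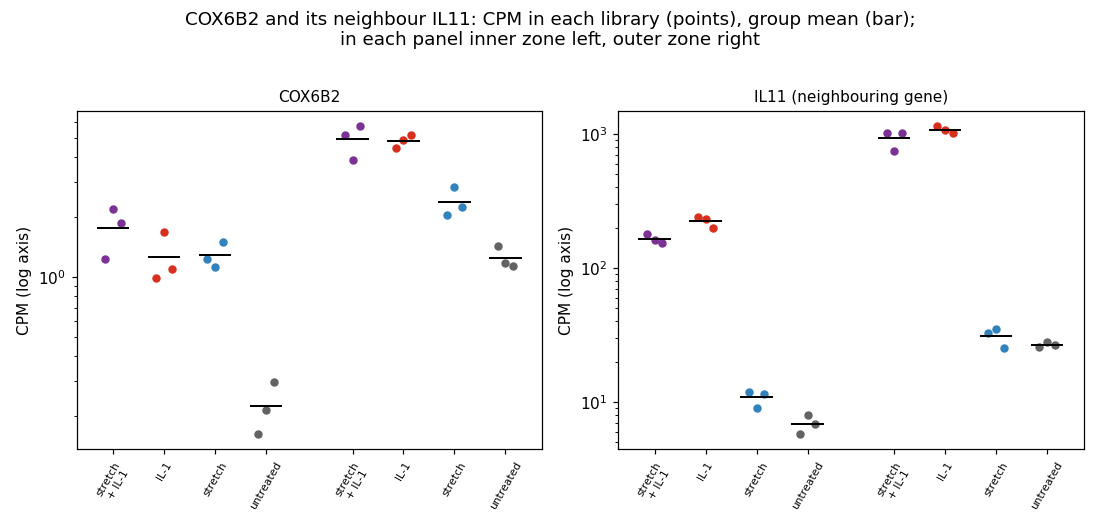
CPM of COX6B2 and IL11 in every library (points) with group means as bars; inner zone groups stand left and outer zone groups right in each panel, and both y axes are logarithmic. IL11 is raised in the wells with IL-1, and COX6B2 is lowest in the untreated inner zone wells (0.162, 0.215 and 0.297 CPM).

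Of the 10 genes grouped here as ATP synthase, ATP5S among them, 6 rose and 1 fell in the inner zone, and 1 rose and 2 fell in the outer zone. These rises did not hold under all 4 scalings, while ATP5G2 in both zones and ATP5D in the outer zone were lower under all 4. The negative shifts make this condition easier for falls than for small rises. ATP5A1 averaged 503 ± 4.18 CPM with IL-1 and 436 ± 8.58 CPM untreated in the inner zone, and 548 ± 13.6 CPM with IL-1 and 492 ± 4.55 CPM untreated in the outer zone (SD, n = 3 each). Its log2 fold changes were 0.21 ± 0.034 (adjusted p = 1.9e-06) and 0.15 ± 0.034 (adjusted p = 0.00016), which library totals turned to -0.065 and -0.12. ATP5G1, ATP5G2 and ATP5G3 encode the same mature ring subunit, c, and did not share a direction. ATP5G2 had 85.2, 85.4 and 91.2 CPM in inner zone wells with IL-1, against 103, 100.3 and 98.3 CPM untreated, and fell in both zones (-0.20 ± 0.050, adjusted p = 0.00053, and -0.31 ± 0.050, adjusted p = 1.7e-06). ATP5G3 rose in the inner zone (0.14 ± 0.044, adjusted p = 0.007), turned to -0.14 by library totals, as did ATP5G1 (0.14 ± 0.054, adjusted p = 0.026), whose call was lost without untreated well 1 or 3 or IL-1 well 1 (up to adjusted p = 0.094) and whose value library totals turned to -0.14. Only uniquely mapped reads were kept, so reads from parts identical in these 3 genes would be left out of the counts.

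In stretched cells, 12 of 64 genes rose and 10 fell with IL-1 in the inner zone, beside 27.2% and 26.3% of all genes, and 9 rose and 12 fell in the outer zone, beside 28.5% and 30.9%. The 6 genes ATP5G2, COX4I2, COX6A2, NDUFS3, NDUFV3 and SDHAF3 fell in both zones with IL-1, stretched and at rest. NDUFV3 averaged 57.9 ± 2.67 CPM with stretch and IL-1 and 76.8 ± 4.35 CPM with stretch alone in the inner zone (SD, n = 3 each). COX6B2 rose in the outer zone (1.05 ± 0.16, adjusted p = 7.3e-07) and had 0.47 ± 0.22 (adjusted p = 0.069) in the inner zone. Without stretched well 2 the inner zone count was 14. Library totals gave 0 higher and 48 lower in the inner and 1 higher and 48 lower in the outer zone, and upper-quartile scaling 0 higher and 33 lower and 2 higher and 30 lower. The shares of all genes on these scales are not given.

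Stretch in the presence of IL-1 lowered a share of these genes in inner zone cells. There, 1 of 64 rose and 20 fell with stretch, beside 16.6% of all genes higher and 18.1% lower, and the median log2 fold change was -0.078, beside 0.0069 over all genes. In the outer zone 1 rose and 3 fell, beside 13.1% and 15.1%, with a median of 0.011, beside 0.013. The genes that fell in the inner zone included 6 of 10 of ATP synthase, 4 of 7 core subunits of complex I and 2 of 4 of complex III. NDUFA6 fell in the inner zone (-0.27 ± 0.060, adjusted p = 0.00056) and in the outer zone (-0.20 ± 0.059, adjusted p = 0.0084), where the call was lost without stretched IL-1 well 6 (adjusted p = 0.1). COX7A1 had 3.00, 2.97 and 2.39 CPM in inner zone wells with stretch and IL-1, against 4.61, 4.54 and 3.35 CPM at rest with IL-1, and fell there (-0.58 ± 0.15, adjusted p = 0.0022). Its fall in the outer zone (-0.48 ± 0.14, adjusted p = 0.0092) was lost without IL-1 well 6 or stretched IL-1 well 4 (up to adjusted p = 0.071).

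UQCRC1 had 120.0, 114 and 119.6 CPM in inner zone wells with stretch and IL-1, against 138, 139.7 and 134 CPM at rest with IL-1, a log2 fold change of -0.22 ± 0.043 (adjusted p = 0.00011). ATP5G1 had 75.9, 61.9 and 65.5 CPM in inner zone wells with stretch and IL-1, against 80.1, 77.4 and 78.1 CPM at rest with IL-1 (-0.21 ± 0.055, adjusted p = 0.0021). For both genes the wells with stretch were all lower. NDUFAF4, an assembly factor, was the gene that rose, with 10.5, 10.7 and 11.08 CPM in inner zone wells with stretch and IL-1, against 7.92, 8.79 and 8.34 CPM at rest with IL-1 (0.37 ± 0.093, adjusted p = 0.0019). ATP5G2 rose in the outer zone (0.14 ± 0.050, adjusted p = 0.037), a call lost without IL-1 well 4 or 6 or stretched IL-1 well 4 or 5 (up to adjusted p = 0.21). The difference between the zones in this effect passed the edgeR test for 0 of the 64 genes, with 15 at an unadjusted p under 0.05 and 1 called by DESeq2, beside 1.33% of all genes with a more positive and 0.996% with a more negative effect in the inner zone. The inner zone count depended on single wells and was 9 without stretched IL-1 well 2, 12 without stretched IL-1 well 3 and 12 without IL-1 well 1. The outer zone count was 2 without IL-1 well 6 or stretched IL-1 well 4. Library totals gave 6 higher and 5 lower in the inner and 8 higher and 2 lower in the outer zone, and upper-quartile scaling 2 higher and 7 lower and 10 higher and 3 lower. Under all 4 scalings NDUFAF4 was higher and ATP5G1, COX7A1, NDUFA6 and UQCRC1 were lower in the inner zone.

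**Figure D4:**
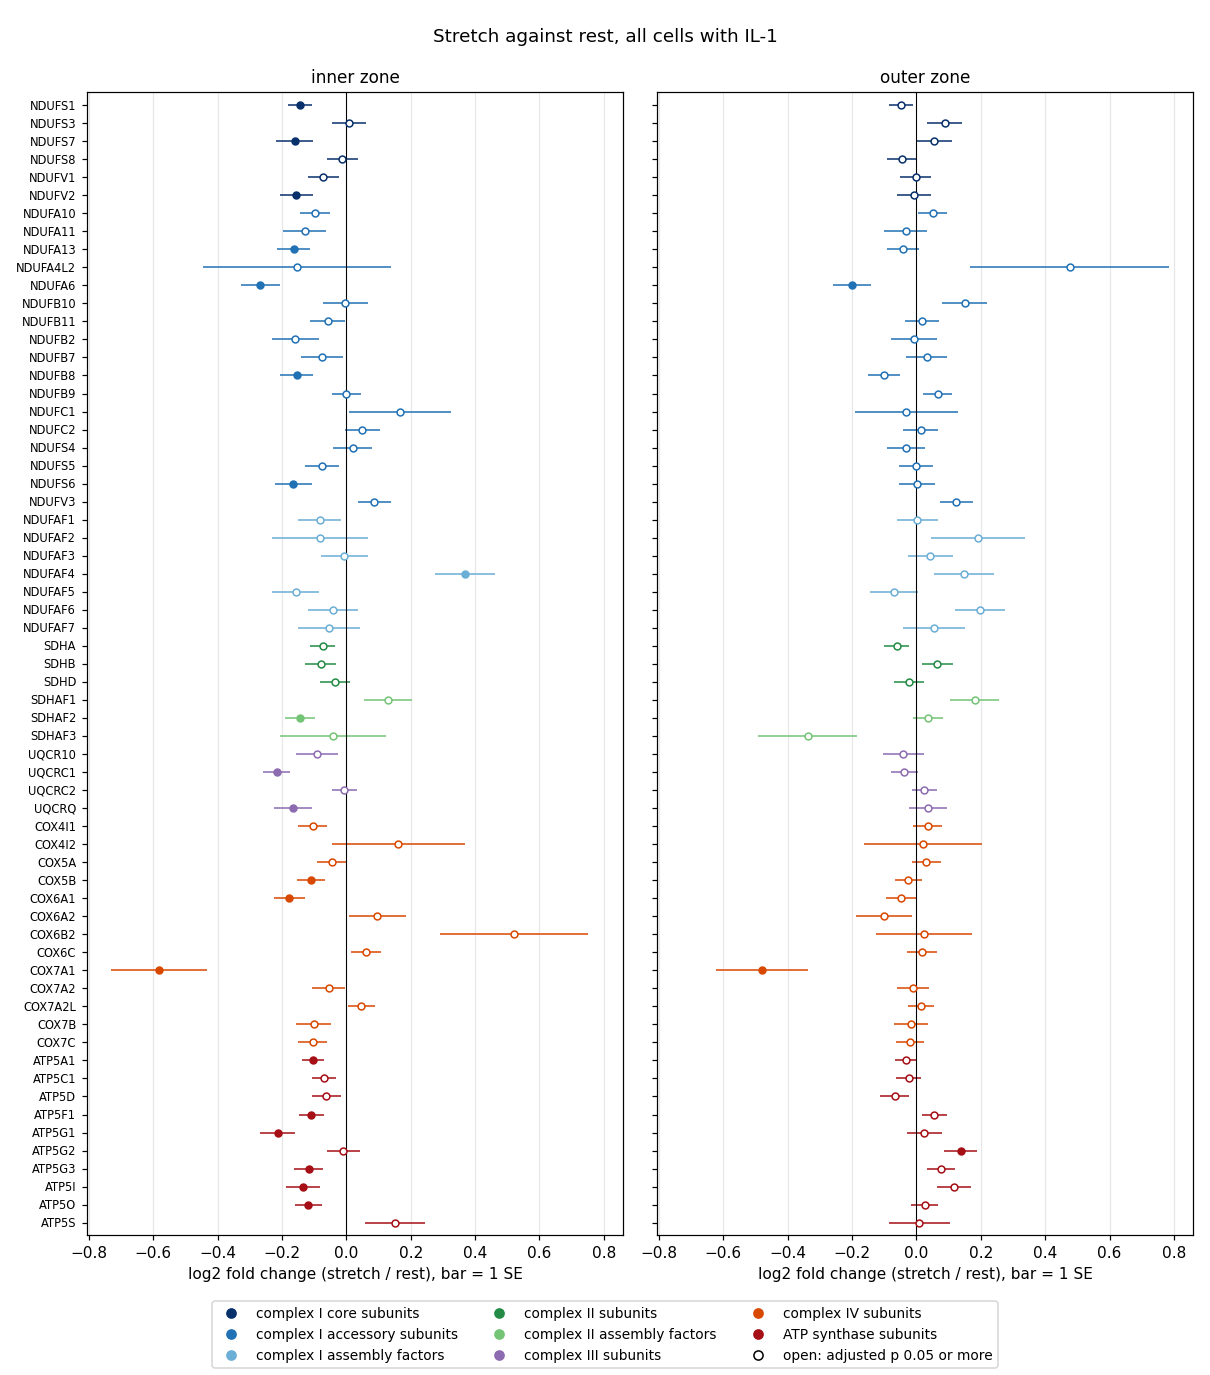
Log2 fold change with stretch over rest in cells that all had IL-1 (x axis) for 63 of the 64 genes (y axis, by complex), inner zone left and outer zone right; bars are 1 SE and filled points passed adjusted p under 0.05. In the inner zone 19 of the genes plotted are lower and 1 higher, and in the outer zone 2 are lower and 1 higher.

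Stretch without IL-1 changed few of these genes. In the inner zone 2 of 64 rose and 4 fell, beside 10.6% and 9.29% of all genes, and in the outer zone 3 rose and 1 fell, beside 11% and 10.3%. COX6B2 had 1.24, 1.12 and 1.51 CPM in stretched inner zone wells, against 0.162, 0.215 and 0.297 CPM untreated. COX6B2 had 2.06, 2.83 and 2.24 CPM in stretched outer zone wells, against 1.44, 1.17 and 1.14 CPM untreated. It rose in both zones without overlap, by 2.48 ± 0.33 (adjusted p = 5.3e-07) and 0.93 ± 0.20 (adjusted p = 0.00076), while its neighbour IL11 had 0.66 ± 0.20 (adjusted p = 0.025) and 0.21 ± 0.15 (adjusted p = 0.38). SDHAF1, a factor for maturation of SDHB, had 18.4, 16.9 and 17.1 CPM in stretched outer zone wells, against 14.7, 14 and 13.7 CPM untreated (0.30 ± 0.072, adjusted p = 0.0019). Its rise in the inner zone (0.20 ± 0.070, adjusted p = 0.043) was lost without untreated well 2 or 3 or stretched well 2 or 3 (up to adjusted p = 0.16). COX4I2 had 4.74, 5.96 and 5.14 CPM in stretched outer zone wells, against 7.93, 10.1 and 7.2 CPM untreated, a log2 fold change of -0.67 ± 0.15 (adjusted p = 0.0013). NDUFAF4 rose in the outer zone (0.28 ± 0.091, adjusted p = 0.025), which was lost without untreated well 4 or 6 or stretched well 4 (up to adjusted p = 0.22). In the inner zone NDUFAF1 fell (-0.20 ± 0.062, adjusted p = 0.018), a call lost without untreated well 2 or 3 or stretched well 1 (up to adjusted p = 0.087). NDUFA6 fell there too (-0.17 ± 0.060, adjusted p = 0.044), lost without untreated well 1 or 2 or stretched well 1 or 3 (up to adjusted p = 0.17), as did NDUFS6, an accessory subunit of complex I (-0.17 ± 0.054, adjusted p = 0.027), lost without untreated well 2 or stretched well 1 or 3 (up to adjusted p = 0.13). The inner zone count of 6 was 1 without untreated well 2, 2 without stretched well 3 and 3 without untreated well 3 or stretched well 1.

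Whether the stretch effect differed with and without IL-1 was tested as an interaction. In the inner zone the stretch effect was more negative with IL-1 for 4 of 64 genes, beside 11% of all genes, and more positive for 0 by edgeR and 0 by DESeq2, beside 8.66%, with 12 genes of either sign at an unadjusted p under 0.05. In the outer zone it was more negative for 2, beside 7.76%, and more positive for 0 by edgeR and 1 by DESeq2, beside 5.4%, with 6 at an unadjusted p under 0.05. The inner zone count of 4 became 1 with library totals, 2 with upper-quartile scaling and 2 to 9 on leaving out 1 library, and the outer zone count of 2 became 3 with the replicate block and 1 to 3 on leaving out 1 library. COX6B2 had interactions of -1.96 ± 0.42 (adjusted p = 0.00067) in the inner and -0.91 ± 0.25 (adjusted p = 0.012) in the outer zone, with 1.23, 2.2 and 1.86 CPM in inner and 5.15, 3.87 and 5.72 CPM in outer zone wells with stretch and IL-1. Its stretch effects with IL-1 were 0.52 ± 0.23 (adjusted p = 0.078) and 0.023 ± 0.15 (adjusted p = 0.93), so it was not called lower. The inner zone interactions of UQCRC1 (-0.20 ± 0.060, adjusted p = 0.016) and COX6A1 (-0.22 ± 0.068, adjusted p = 0.016) were lost without untreated well 3 or stretched IL-1 well 2 (up to adjusted p = 0.06) for UQCRC1, and without untreated well 3 or stretched well 2 or stretched IL-1 well 2 (up to adjusted p = 0.067) for COX6A1.

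Compared with the outer zone, inner zone cells had lower levels of many of the 64 genes. In untreated cells 26 were lower and 3 higher, beside 24.3% and 20.7% of all genes. With stretch 34 were lower and 1 higher, beside 23.7% and 20.4%, and with stretch and IL-1 30 were lower and 2 higher, beside 24.4% and 23.8%. With IL-1 at rest 12 were lower and 6 higher, beside 22.9% and 24%, 10 in all without outer zone IL-1 well 6. With library totals the stretched cells had 1 higher and 18 lower. For IL-1 at rest library totals gave 8 higher and 4 lower, and upper-quartile scaling 8 higher and 9 lower. The median log2 differences of the 64 genes, inner over outer, were -0.12 untreated, -0.12 with stretch, -0.038 with IL-1 and -0.11 with stretch and IL-1, beside -0.014, -0.00992, 0.0083 and 0.000734 over all genes.

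On the TMM scale ATP synthase showed this in most of its genes, with 9 of 10 lower in untreated inner zone cells, 9 with stretch, 7 with stretch and IL-1 and 1 with IL-1 at rest. Of all genes, 24.3%, 23.7%, 24.4% and 22.9% were lower, in that order. The gene of this group not called lower in untreated cells was ATP5S. Under all 4 scalings ATP5A1, ATP5D and ATP5I were lower both untreated and with stretch, and ATP5F1 untreated. With stretch and IL-1, ATP5A1, ATP5F1, ATP5G1, ATP5G3, ATP5I and ATP5O were lower under all 4. The call with IL-1 at rest did not hold under all 4. Its 10 genes summed to 1250, 1263 and 1274 CPM in untreated inner zone wells, against 1392, 1393 and 1410 CPM in untreated outer zone wells, without overlap. With IL-1 at rest the sums were 1366, 1366 and 1372 CPM in inner zone wells, against 1401, 1420 and 1452 CPM in outer zone wells. These sums did not overlap either, with means of 1368 and 1424 CPM, but much of their gap lay in ATP5A1. That gene, the only ATP synthase gene called there, had a mean of 503 CPM for the inner zone against 548 CPM for the outer. Every other ATP synthase gene overlapped between the zones, so this sum does not describe the complex as a whole. In complex IV, 8 of 13 genes were lower in untreated inner zone cells, beside 24.3% of all genes. Under all 4 scalings COX4I2, COX5B, COX6B2, COX6C, COX7A2 and COX7C were lower. COX6C, a subunit of complex IV, had 92.9, 96.3 and 92 CPM in untreated inner zone wells, against 121, 106 and 112 CPM in untreated outer zone wells (-0.27 ± 0.046, adjusted p = 8.2e-06). COX4I2 had 4.94, 6.57 and 5.19 CPM in untreated inner zone wells, against 7.93, 10.1 and 7.2 CPM in untreated outer zone wells (-0.59 ± 0.15, adjusted p = 0.0016). COX6B2 had 0.162, 0.215 and 0.297 CPM in untreated inner zone wells, against 1.44, 1.17 and 1.14 CPM in untreated outer zone wells (-2.44 ± 0.34, adjusted p = 2.2e-07). None of these 3 genes overlapped between zones. In complex I, NDUFA13, an accessory subunit also known as GRIM-19, had 43.4, 45.1 and 44.2 CPM in untreated inner zone wells, against 51.3, 52 and 55.9 CPM in untreated outer zone wells (-0.26 ± 0.050, adjusted p = 5.2e-05). NDUFAF3 had 15.4, 15.4 and 15.8 CPM in untreated inner zone wells, against 19.8, 20.2 and 20.1 CPM in untreated outer zone wells (-0.37 ± 0.066, adjusted p = 2.2e-05).

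The genes higher in untreated inner zone cells were NDUFAF5 (0.28 ± 0.075, adjusted p = 0.0028), SDHAF1 (0.20 ± 0.073, adjusted p = 0.026) and NDUFV3 (0.19 ± 0.049, adjusted p = 0.0015). NDUFV3 had 78.2, 73.9 and 71.1 CPM in untreated inner zone wells, against 64.2, 65.5 and 65.7 CPM in untreated outer zone wells. The SDHAF1 call was lost without inner zone well 1 or outer zone well 5 or 6 (up to adjusted p = 0.14). All 3 were also higher under all 4 scalings, as 16 genes, COX6C, NDUFA13, NDUFAF3 and ATP5A1 among them, were lower. Chondrocyte-like markers differed between the zones as well, and their part in the zone difference was not tested. In bulk RNA fewer cells of a type and less RNA per cell cannot be told apart.

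**Figure D5:**
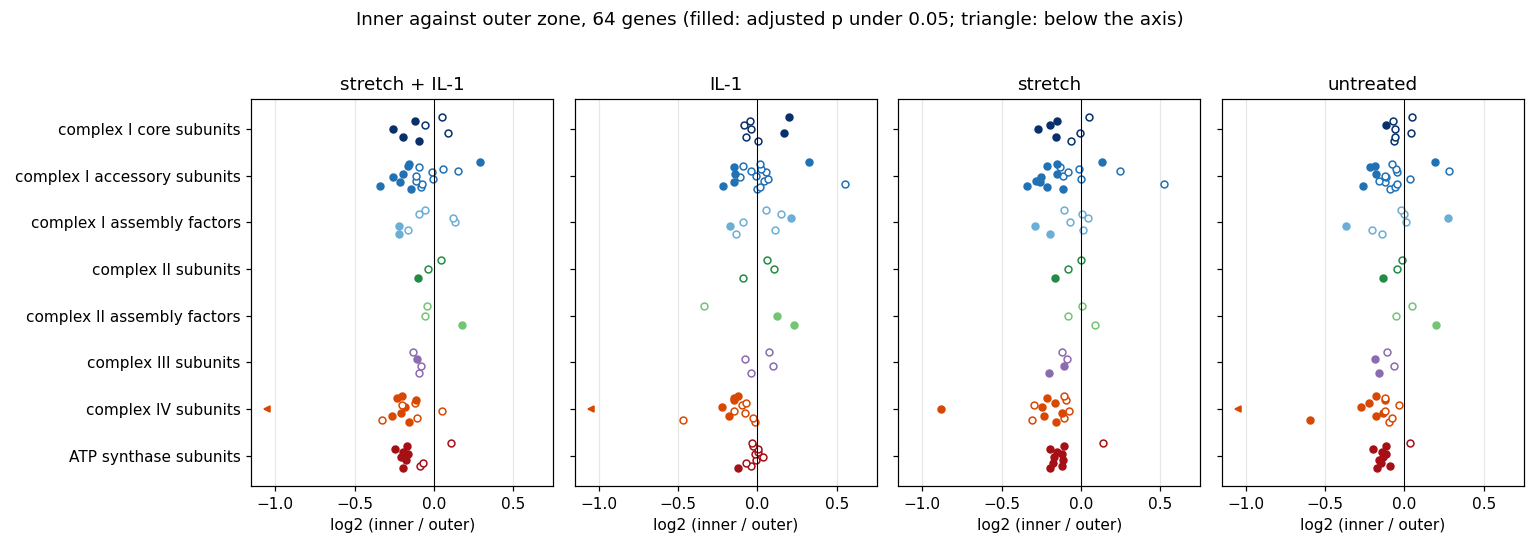
Log2 ratio of inner over outer zone (x axis) for the 64 genes by complex (y axis, 1 point per gene), in 1 panel per treatment; filled points passed adjusted p under 0.05 and triangles lie beyond the axis. Lower genes number 26 untreated, 34 with stretch, 12 with IL-1 and 30 with stretch and IL-1.

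Other genes of the pathway were described from lists. A further 17 genes of the same families carry no symbol in the count table and were named through a reference gene table. Over all genes tested on the TMM scale, IL-1 at rest gave 32.6% higher and 32.8% lower in the inner zone. In the outer zone it gave 31.1% higher and 33.5% lower. These shares are the background for the TMM counts below. They are not a background for the counts by library totals, for which shares of all genes are not given here. Of the 17, 3 rose and 3 fell with IL-1 at rest in the inner zone (library totals 2 higher and 15 lower), and 7 were lower and 1 higher in untreated inner zone cells against outer zone cells, beside 24.3% and 20.7% of all genes and with 3 lower and 1 higher by library totals. NDUFAB1, the mitochondrial acyl carrier protein, averaged 63.7 CPM with IL-1 and 42.2 CPM untreated in the inner zone (0.59 ± 0.048, adjusted p = 3.3e-13). C15orf48 encodes a paralogue of NDUFA4 known in human cells to be induced in inflammation, and it averaged 35.6 CPM with IL-1 and 1.23 CPM untreated in the inner zone (4.84 ± 0.10, adjusted p = 8.5e-30). CYCS, the electron carrier cytochrome c, rose by 0.37 ± 0.048 (adjusted p = 3.8e-08) in the inner and 0.39 ± 0.049 (adjusted p = 1.2e-08) in the outer zone, calls that library totals ended. Of 29 measured assembly factors under other symbols, 5 rose and 14 fell in the inner zone and 5 rose and 14 fell in the outer zone (library totals 3 higher and 23 lower, and 2 higher and 24 lower). TMEM70, needed for ATP synthase assembly, fell (-1.02 ± 0.091, adjusted p = 4.9e-12, and -0.87 ± 0.089, adjusted p = 1.4e-10), as did ATPAF1, a chaperone for the same complex (-0.73 ± 0.051, adjusted p = 1.2e-14, and -0.93 ± 0.053, adjusted p = 2.5e-17).

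Of 12 measured subunits encoded in mitochondrial DNA, 0 passed the edgeR test in any of 16 comparisons. Of these 192 tests, 1 had an unadjusted p under 0.05 and 1 passed by DESeq2. Their summed level was 2242 to 3051 CPM in inner zone wells with IL-1 and 2101 to 3436 CPM untreated, a spread between wells much wider than that of the nuclear genes, so that changes of the size seen for those were not detectable. Of 14 measured genes of coenzyme Q synthesis and electron entry, 4 rose and 4 fell with IL-1 in the inner zone (library totals 1 higher and 10 lower). Of 19 genes of the citric acid cycle and pyruvate entry, 9 rose and 4 fell (library totals 2 higher and 15 lower), with PDHX, a component of pyruvate dehydrogenase, at 2.45 ± 0.051 (adjusted p = 7.6e-30). Of 56 mitochondrial ribosomal genes, 18 rose and 12 fell in the inner and 10 rose and 20 fell in the outer zone (library totals 2 higher and 40 lower, and 1 higher and 47 lower). Of 17 import genes 10 rose and 4 fell in the inner zone (library totals 2 higher and 8 lower). Of 12 regulators of mitochondrial biogenesis, 8 rose and 2 fell in the inner zone (library totals 4 higher and 4 lower), among them NRF1 (0.83 ± 0.056, adjusted p = 2.9e-15) and GABPB1, a GABP subunit (0.62 ± 0.061, adjusted p = 4.5e-11), which rose.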

How the data were processed

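Per the labels and the study's methods, the authors trimmed stranded mRNA-seq reads with Trim Galore and cutadapt, mapped them with STAR to the Sscrofa11.1 pig genome, kept uniquely mapped reads and deposited raw read counts per gene made with HTSeq, whose strand setting is not given in the sources used here. The deposited counts of all 24 libraries were fitted with edgeR 4.0.16 (R 4.3.3) as 8 group means, with TMM scaling, a minimum of 10 reads in any library and robust quasi-likelihood tests. P-values were adjusted by Benjamini-Hochberg over 13653 genes. The procedure was tested on simulated data in which few genes changed, evenly up and down, in a single group. That setting does not test the scaling under changes as wide as those with IL-1. Alternatives were DESeq2 1.42.0, other scalings and filters, each zone alone, the well number as a block, and leaving out each library.

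Genes named with values in each library were up to 4 with the largest called rise and up to 4 with the largest called fall, at a mean of 5 CPM or more in the higher group, taken over both zones by the larger effect, for IL-1 at rest, stretch with IL-1, stretch without IL-1 and zone in untreated cells, and the isoform pairs. Members and lists were chosen with earlier results of these data known. Gene positions and promoters came from RefSeq (Sscrofa11.1), with 54 genes matched by symbol and 10 by product name. The fits and counts hold all 64 genes, but 1 of them is not reported here by name or value and is left out of the plots by gene.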

Additional observations from a re-analysis of the deposited data

Results flagged for a closer look

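The effect of stretch differed between cells with and without IL-1, by the interaction test itself (edgeR), for COX6B2 in both zones and for COX6A1 and UQCRC1 in the inner zone. COX6B2 had a log2 difference of -1.96 ± 0.42 (adjusted p = 0.00067) in the inner and -0.91 ± 0.25 (adjusted p = 0.012) in the outer zone, where ± is the SE. Stretch raised COX6B2 without IL-1, by 2.48 in the inner and 0.93 in the outer zone. With IL-1 the stretch effects on COX6B2 were 0.52 ± 0.23 (adjusted p = 0.078) and 0.023 ± 0.15 (adjusted p = 0.93), so it was not called lower. Its untreated inner zone mean was 0.22 CPM, and its lowest library had 5 reads. COX6A1 had -0.22 ± 0.068 (adjusted p = 0.016) and UQCRC1 -0.20 ± 0.060 (adjusted p = 0.016) in the inner zone. Without single wells both of these calls were lost (up to adjusted p = 0.067 for COX6A1 and 0.06 for UQCRC1). Of the 4 calls among all 64 genes in the inner zone, library totals left 1 and upper-quartile scaling 2.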

How the results depend on the processing

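The number of the 64 genes called moved with scaling and with single libraries. With library totals it was 50 and 56 for IL-1 at rest (inner and outer zone), 48 and 49 for IL-1 in stretched cells, 11 and 10 for stretch with IL-1, 1 for the inner zone interaction and 19 for the zones in stretched cells. With upper-quartile scaling it was 48 for IL-1 at rest and 32 for IL-1 in stretched cells (both outer), 9 and 13 for stretch with IL-1 and 2 for the inner zone interaction. Shares of all genes called under these scalings are not given, so these counts do not compare the 64 genes with other genes. Without a filter on low counts the inner zone IL-1 calls were 16 higher and 10 lower at rest and 7 higher and 11 lower in stretched cells. For the zone difference of the stretch effect with IL-1, DESeq2 called 1 gene and the fit with the well number as a replicate block 1. With the block the outer zone interaction had 3 calls. Wells of the same number did not deviate together (pairwise correlations -0.0817 to 0.0699). What they share beyond the number is not given in the labels.

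Leaving out 1 library at a time gave 14 to 19 calls for IL-1 in stretched inner zone cells, 1 to 8 for stretch without IL-1 in the inner zone, 9 to 28 and 2 to 5 for stretch with IL-1 (inner and outer), 2 to 9 and 1 to 3 for the interaction, 10 to 17 for the zones with IL-1 and 0 to 2 for the zone difference of the stretch effect with IL-1.

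Small IL-1 rises changed sign with scaling. In the inner zone, upper-quartile scaling and library totals gave -0.040 and -0.14 for ATP5G1, -0.050 and -0.15 for COX6C, and -0.050 and -0.15 for NDUFA13, and library totals -0.00241 for COX4I1, -0.071 for COX6A1 and -0.034 for COX7A2. In the outer zone both scalings gave -0.00935 and -0.10 for NDUFV2, -0.060 and -0.15 for UQCRC1, and -0.030 and -0.12 for COX6A1, and library totals -0.078 for COX4I1. Of 73 called log2 fold changes of named genes, 44 kept direction and call with library totals, 51 with upper-quartile scaling, 68 with DESeq2 and 72 with the block. The median SE of the inner zone IL-1 effect over the 64 genes was 0.0522, which sets the size of change that 3 wells a group could show. The scalings of the pathway lists and of single genes outside the naming rule were chosen after seeing the data. What made the results move between settings was not tested.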
